A study of Homo sapiens with 18 samples.

Results

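The genes examined here encode 9 factors of nonsense-mediated decay (NMD), namely UPF1, UPF2, UPF3A, UPF3B, SMG1, SMG5, SMG6, SMG8 and SMG9. An intron of the deposited splicing table was taken as a member when at least 1 of its splice sites lay on an annotated exon boundary of these genes in GENCODE (release 44, hg38). This gave 234 introns in 68 clusters, of 233650 introns in 51819 clusters in the whole table. RNA was sequenced from SHEP.tet21n cells, a neuroblastoma line in which a human MYCN cDNA is shut off by doxycycline (Dox). The MYCN-/SNRPD3+ group (wildtype) was kept in 2 µg/mL Dox, which represses MYCN, and given control siRNA. MYCN-/SNRPD3- cells received the same Dox with SNRPD3 siRNA #1 or siRNA #2, each a group of its own. MYCN+/SNRPD3+ cells received vehicle (DMSO) in place of Dox with control siRNA, and MYCN+/SNRPD3- cells received vehicle with SNRPD3 siRNA #1 or #2. MYCN state and Dox thus went together in every library, so differences given below for MYCN cannot be told apart from those of Dox itself. SNRPD3 encodes the Sm protein D3, a part of the ring that coats the small nuclear RNAs of the spliceosome. Each of the 6 groups held 3 libraries, which the study describes as independent biological replicates, all from this 1 cell line.

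NMD removes mRNAs on which a ribosome stops too early, typically upstream of an exon junction. UPF1 is the RNA helicase at its centre, UPF2 bridges UPF1 to UPF3B or UPF3A, and UPF3B binds the exon junction complex left behind by splicing. SMG1 is the kinase that phosphorylates UPF1, SMG8 and SMG9 hold that kinase in check, and SMG5 and SMG6 read the phosphorylated UPF1, with SMG6 cutting the mRNA itself. Several of these mRNAs have alternative forms of their own, and a form that gains an early stop codon can itself be a target of the pathway.

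The stretches of sequence on which the results below turn were read from hg38, 5′ to 3′ on the strand of each gene. The capitals mark the bases that are optional in UPF1, whole exons in UPF3A, UPF3B, SMG5, SMG6 and SMG9, and the splice-site dinucleotide at the unannotated sites of UPF3A and SMG6. The UPF1 stretch shows the end of exon 7, the 33-base extension and the start of the intron. The first UPF3A stretch holds 43 bases in front of exon 4 that an earlier acceptor adds, beginning at tagaattt.
UPF1 33-base extension, chr19:18853052-18853124, plus strand: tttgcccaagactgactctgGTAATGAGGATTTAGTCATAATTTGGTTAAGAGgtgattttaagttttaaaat
UPF3A exon 4, chr13:114286239-114286420, plus strand: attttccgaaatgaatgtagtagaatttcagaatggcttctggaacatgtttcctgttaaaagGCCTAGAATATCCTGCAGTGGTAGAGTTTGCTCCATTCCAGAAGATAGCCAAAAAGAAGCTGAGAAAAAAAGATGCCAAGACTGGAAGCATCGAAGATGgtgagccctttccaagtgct
UPF3A exon 6, chr13:114291469-114291564, plus strand: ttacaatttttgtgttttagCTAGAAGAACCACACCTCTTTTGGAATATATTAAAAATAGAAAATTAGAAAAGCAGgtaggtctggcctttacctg
UPF3A unannotated acceptor, chr13:114286699-114286778, plus strand: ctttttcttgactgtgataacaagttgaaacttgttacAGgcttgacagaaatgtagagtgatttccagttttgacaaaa
UPF3B exon 8, chrX:119840626-119840704, minus strand: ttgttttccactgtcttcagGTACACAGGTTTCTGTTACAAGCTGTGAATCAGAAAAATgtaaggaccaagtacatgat
SMG5 exon 16, chr1:156258985-156259183, minus strand: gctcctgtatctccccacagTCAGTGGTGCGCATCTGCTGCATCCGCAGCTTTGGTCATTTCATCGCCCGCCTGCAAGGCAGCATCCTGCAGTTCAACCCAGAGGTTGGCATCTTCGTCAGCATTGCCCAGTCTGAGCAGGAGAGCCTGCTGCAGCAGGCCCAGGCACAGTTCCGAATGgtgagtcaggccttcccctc
SMG6 exon 17, chr17:2065448-2065699, minus strand: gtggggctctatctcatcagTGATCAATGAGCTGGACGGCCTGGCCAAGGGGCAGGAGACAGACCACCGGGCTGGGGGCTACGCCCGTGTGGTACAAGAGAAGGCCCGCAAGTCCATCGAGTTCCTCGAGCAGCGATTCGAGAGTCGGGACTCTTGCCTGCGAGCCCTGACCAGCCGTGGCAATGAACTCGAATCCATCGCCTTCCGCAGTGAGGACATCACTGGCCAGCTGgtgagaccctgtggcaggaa
SMG6 unannotated donor, chr17:2302999-2303028, minus strand: agccacgtcaggaaaGTaagaaagattcta
SMG9 exon 6, chr19:43744752-43744904, minus strand: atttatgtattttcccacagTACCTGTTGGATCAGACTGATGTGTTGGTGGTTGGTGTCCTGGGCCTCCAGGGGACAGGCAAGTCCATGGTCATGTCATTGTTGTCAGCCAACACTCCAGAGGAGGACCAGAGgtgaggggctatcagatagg

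Splicing was given as PSI, the share of an intron's reads among the reads of its cluster, a set of introns linked by shared splice sites. Only introns that share a site with an alternative enter a cluster, so 100 of the 180 introns of the 9 canonical transcripts were in the table. SMG1 contributed 66 rows, SMG6 44, UPF2 26, UPF3A 26, SMG5 25, UPF1 23, SMG9 12, UPF3B 8 and SMG8 4. Of the 234 rows, 121 were annotated introns, 29 joined 2 annotated sites in a way that is not annotated, and 84 used 1 annotated site. All 113 unannotated rows began with GT and ended with AG, as did 120 of the 121 annotated ones, the other being GC to AG. A single annotated intron, in SMG1, belonged only to transcripts labelled as NMD targets. Of the 234 rows, 149 had a mean PSI between 0.01 and 0.99 over the 18 libraries and entered the test, while 73 lay below that range and 12 above it.

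PSI does not measure how much mRNA a gene makes, so the levels of MYCN, SNRPD3 and the 9 genes, and the identity of the line, were not checked here. Reads per intron were not given and the depth is unknown. The PSI values were never exactly 0 or 1, and a value of a few hundredths of a percent, as several exons below show, stands at the low end of the scale where the number of reads cannot be seen. The median SD between the 3 libraries of a group was 1.65 percentage points over the tested member introns and 2.27 over all 152722 tested introns. SMG1 has near-identical pseudogene copies, on whose splice sites 71 rows of the table lay, so reads of SMG1 may have been divided among them and its values are uncertain.

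None of the 149 tested member introns passed an adjusted p of 0.05 in any of 11 comparisons. All groups were fitted together by limma on the log2 odds of PSI, with Benjamini-Hochberg adjustment over all tested introns. The whole table had few calls as well, and the member counts stand beside its share of called introns here. For SNRPD3 knockdown over all libraries, 0.0242% of all introns were called and 7.8% had an unadjusted p under 0.05, against 16 members (10.7%), 9 with higher and 7 with lower PSI. For MYCN expressed against repressed over all libraries, 1.23% of all introns were called and 11.7% had an unadjusted p under 0.05, against 15 members (10.1%), 11 higher and 4 lower. These 16 and 15 introns fell in 12 and 10 clusters, and introns of a cluster are not independent. The lowest adjusted p was 0.315 for knockdown, in SMG9, and 0.0692 for MYCN, in UPF3A.

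The pairwise comparisons asked for the effect of each change on its own background. Between MYCN+/SNRPD3+ and wildtype, 0.0543% of all introns were called and 6.19% had an unadjusted p under 0.05, against 0 and 5 of the 149 members. With MYCN repressed, siRNA #1 against control siRNA gave 0.0105% and 4.54% of all introns, against 0 and 10 members. With MYCN repressed, siRNA #2 gave 0.0151% and 4.69%, against 0 and 8 members. With MYCN expressed, siRNA #1 gave 0.0144% and 7.25%, against 0 and 13 members. With MYCN expressed, siRNA #2 gave 0.0164% and 6.17%, against 0 and 11 members. MYCN+/SNRPD3- siRNA #1 against wildtype had the highest member count, 24 introns (16.1%) in 16 clusters at an unadjusted p under 0.05 and 0 called, beside 10.4% and 0.278% of all introns.

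MYCN+/SNRPD3- siRNA #2 against wildtype gave 11 members at an unadjusted p under 0.05 and 0 called, beside 9.19% and 0.11% of all introns. Whether knockdown acted differently on the 2 MYCN backgrounds was tested as an interaction, with 3 members at an unadjusted p under 0.05 for siRNA #1 (4.07% of all introns) and 9 for siRNA #2 (3.97%). Neither interaction had a member call, beside 0.017% and 0.0138% of all introns called. These comparisons share libraries, so their counts are not independent of each other.

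The differences were small in percentage points. Over the 149 tested members the median absolute difference was 0.865 points for knockdown and 0.786 for MYCN, beside 1.1 and 1.21 over all tested introns. The largest was 8.39 points for knockdown, at the unannotated SMG6 donor described below, and 6.43 for MYCN, in SMG1. PSI was higher with knockdown in 49.7% of the members and in 49.9% of all tested introns, and higher with MYCN in 54.4% and 50.3%.

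UPF1 has a pair of donor sites at the end of exon 7, 33 bases apart, and the later site lengthens a loop of the helicase domain that regulates its grip on RNA. The extension keeps the reading frame, which goes from 1118 to 1129 codons. In wildtype libraries the later donor took 13.8%, 10.2% and 12.9% of the reads of the pair. It took 13.5%, 10.6% and 17.2% in MYCN-/SNRPD3- siRNA #1 and 12.8%, 14.7% and 15.3% in siRNA #2. The MYCN+/SNRPD3+ libraries gave 21.4%, 16.8% and 15.1%, MYCN+/SNRPD3- siRNA #1 16.8%, 18.9% and 16%, and siRNA #2 19.1%, 14.7% and 17%. The ranges with and without MYCN overlapped, 3 of the 9 MYCN+ libraries lying above every MYCN- library. The means were 17.3% with MYCN and 13.4% without, a difference of 0.41 ± 0.14 log2 odds (SE) that did not pass as an annotated event (adjusted p = 0.132). For knockdown the means were 15.5% and 15%, with a 95% interval of -0.24 to 0.39 log2 odds.

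An 80-base exon between chr19:18851050 and 18851129, whose inclusion puts a stop codon 2399 bases upstream of the last junction, was included at 1.31% on average (range 0.00963% to 3.72%) and did not pass for knockdown (0.29 ± 0.32, adjusted p = 0.771) or MYCN (0.23 ± 0.3, adjusted p = 0.777). In intron 1 an unannotated donor took 1.41% of reads on average, and its PSI and that of the annotated intron mirror each other (knockdown ± 0.53 with SE 0.48, adjusted p = 0.901). Introns 14 and 15 of UPF1, chosen here after their values were seen, flank 1 exon and are linked only by a join that skips it at 0.35%. Intron 14 held 14.2% of that cluster and intron 15 held 85.4%.

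UPF2, the scaffold between UPF1 and the UPF3 proteins, had 26 rows, of which 19 were tested and 0 had an unadjusted p under 0.05 for either factor. Introns 5 and 6 lie on either side of exon 6 and held 54.9% and 43% of their cluster. Intron 5 averaged 53.4% with MYCN and 56.4% without (-0.17 ± 0.09 log2 odds, adjusted p = 0.517). Intron 6 averaged 43.6% with knockdown and 41.8% without (0.11 ± 0.09, adjusted p = 0.895). Intron 4 averaged 98.4% with MYCN and 97.2% without (0.69 ± 0.42, adjusted p = 0.593). An unannotated intron, chr10:12014184-12028573, averaged 1.33% with knockdown and 0.747% without (0.34 ± 0.32, adjusted p = 0.905). It entered the test only through knockdown libraries.

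UPF3A, a paralogue of UPF3B, held 6 of the 12 annotated events of the 9 genes. Exon 4, 99 bases long, can be left out without changing the reading frame (443 codons in place of 476), which gives the short form of the protein. Its inclusion was 41.6%, 34.3% and 37.7% in wildtype, 39.5%, 34.7% and 38.2% in MYCN-/SNRPD3- siRNA #1 and 44.8%, 46.6% and 43.7% in siRNA #2. With MYCN expressed it was 39.5%, 40.3% and 44.7% under control siRNA, 41.1%, 33.3% and 46.2% under siRNA #1 and 34.8%, 38.4% and 40.7% under siRNA #2. Inclusion averages the joins on either side of the exon. By this measure exon 4 was left out more often than included in all 18 libraries. Either join taken alone can give another share, which was not computed. The ranges overlapped between control and SNRPD3 siRNA and between MYCN+ and MYCN-. The difference was 0.03 log2 odds for knockdown (95% interval -0.26 to 0.31) and -0.01 for MYCN (-0.29 to 0.26), with adjusted p of 0.963 and 0.972. The single widest group difference in exon 4, between MYCN-/SNRPD3- siRNA #2 (45% ± 1.5, SD, n = 3) and siRNA #1 (37.5% ± 2.5), was not tested.

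An acceptor 43 bases upstream of exon 4 lengthens it to 142 bases and brings a stop codon 781 bases before the last junction. It took 5.38% of the reads of the acceptor pair on average, from 1.74% to 13.1% among libraries. It did not pass for knockdown (5.47% against 5.2%, adjusted p = 0.997) or MYCN (5.35% against 5.41%, adjusted p = 0.974). The longer exon taken as a cassette was included at 30.8%, a value that averages its own upstream join with the downstream join both lengths share, and did not pass either (adjusted p = 0.983 and 0.988). Exon 2 (107 bases) was included at 91.2% and exon 8 (161 bases) at 93.8%, and the loss of either shifts the frame to a stop more than 50 bases ahead of the last junction. Exon 2 averaged 88.7% with MYCN and 93.7% without (-0.83 ± 0.49, adjusted p = 0.422), with the lowest library, 69.6%, in MYCN+/SNRPD3- siRNA #1. Exon 8 averaged 92.9% and 94.7% (-0.43 ± 0.22, adjusted p = 0.347). For knockdown, exon 2 differed by -0.61 ± 0.52 (adjusted p = 0.69) and exon 8 by -0.34 ± 0.23 (adjusted p = 0.607). The exon 2 estimate rests largely on wildtype replicate 2, at 99.9%, without which it was -0.0934, and it ran from -0.932 to -0.0934 as each library was left out.

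The member intron with the lowest p for MYCN ran from the donor of UPF3A at chr13:114286629 to an unannotated acceptor at 114286739. Its PSI was 1.85%, 1.42% and 1% in wildtype, 2.76%, 0.98% and 1.69% in MYCN-/SNRPD3- siRNA #1 and 1.08%, 1.15% and 4.07% in siRNA #2. With MYCN it was 3.61%, 2.8% and 3.36% under control siRNA, 6.23%, 2.39% and 6.01% under siRNA #1 and 3.53%, 3.61% and 4.18% under siRNA #2. A single MYCN- library, siRNA #2 replicate 3, lay within the MYCN+ range along with 1 of siRNA #1, and all others lay below it. The means of 3.97% and 1.78% differed by 0.9 ± 0.22 log2 odds, which missed the threshold at an adjusted p of 0.0692. Without MYCN-/SNRPD3- siRNA #2 replicate 3 the adjusted p was 0.0196, and without MYCN+/SNRPD3- siRNA #1 replicate 2 it was 0.0295. For knockdown the difference was 0.25 ± 0.23 (adjusted p = 0.899). The other UPF3A intron named for MYCN, from 114282943 to an unannotated acceptor at 114284094, averaged 3.35% with MYCN and 4.34% without (-0.33 ± 0.16, adjusted p = 0.444).

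UPF3B, the exon junction complex reader encoded on the X chromosome, had 8 rows. Its exon 8, 39 bases and in frame, was mostly left out. Inclusion was 5.3%, 2.77% and 3.63% in wildtype, 4.8%, 1.92% and 3.88% with siRNA #1 and 2.43%, 2.44% and 3.35% with siRNA #2 when MYCN was repressed. It was 4.59%, 4.75% and 4.64% in MYCN+/SNRPD3+, 2.9%, 2.22% and 3.9% with siRNA #1 and 4.49%, 2.93% and 4.34% with siRNA #2. Every library thus held it between 1.92% and 5.3%. As an event it averaged 3.3% with knockdown and 4.28% without (-0.33 ± 0.18, adjusted p = 0.495), and the intron after it 3.4% and 4.76% (-0.42 ± 0.17, adjusted p = 0.568). An unannotated join from chrX:119843301 to 119851495, which leaves out exon 4 (99 bases, in frame), averaged 1.25% with knockdown and 0.755% without (0.35 ± 0.14, adjusted p = 0.562), and 1.32% with MYCN and 0.853% without (0.34 ± 0.13, adjusted p = 0.322). This join entered only through knockdown libraries in the first comparison and only through MYCN+ libraries in the other. Intron 4 averaged 36.7% with MYCN and 38.9% without (-0.13 ± 0.08, adjusted p = 0.592).

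SMG1, the UPF1 kinase, held 66 rows. A 58-base exon near its 5′ end was included at 44.4% on average with a wide spread, from 21.4% to 57.9%. Its values were 55.4%, 28.9% and 47.4% in wildtype and 47.3%, 21.4% and 44.5% in MYCN+/SNRPD3- siRNA #1, so replicates of 1 group differed by more than the group means. The difference was 0.01 ± 0.35 for knockdown (adjusted p = 0.993) and -0.43 ± 0.33 for MYCN (adjusted p = 0.567). Exon 3, 156 bases and in frame, was included at 95.4%. It stood at 99.8%, 99.8% and 99.9% in wildtype, at 90%, 99.9% and 91% in MYCN-/SNRPD3- siRNA #1, and at 97.5%, 84.8% and 95.6% in MYCN+/SNRPD3+. The means were 93.3% with MYCN and 97.5% without (-1.56 ± 0.57, adjusted p = 0.169). The intron that skips exon 3 averaged 3.54% and 1.31% (1.17 ± 0.45, adjusted p = 0.297). Its PSI ran from 0.051% to 8.24% (median 2.23%) in MYCN+ libraries and from 0.0467% to 5.25% (median 0.0954%) in MYCN- ones, so the ranges overlapped almost throughout. The other annotated SMG1 event, an alternative donor that adds 110 bases, was used at 98.6% (MYCN -1.05 ± 0.44, adjusted p = 0.238, knockdown -0.15 ± 0.47, adjusted p = 0.937). The longer exon was thus the usual form, and the form without the 110 bases was rare. The longer form averaged 97.6% with MYCN and 99.6% without, so the event entered that comparison only through MYCN+ libraries.

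For knockdown, the SMG1 intron with the lowest p ran from chr16:18859703 to 18860073 with 1 annotated site. It averaged 1.62% with knockdown and 4.42% without (-1.27 ± 0.43, adjusted p = 0.436), and its 6 control libraries ranged from 2.29% to 8.55% against 0.0258% to 5.1%. Intron 48 averaged 99.2% and 97.3% (1.18 ± 0.43, adjusted p = 0.487), and entered the test only through control libraries. An unannotated intron, chr16:18830369-18832863, averaged 1.76% with MYCN and 0.622% without (0.81 ± 0.34, adjusted p = 0.366). It entered the test only through MYCN+ libraries.

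SMG8 and SMG9 form the complex that restrains SMG1. SMG8 intron 1, chr17:59211810-59212341, held 13%, 22.2% and 15.9% of its cluster in wildtype, 15.9%, 21% and 17.7% with siRNA #1 and 13%, 21.6% and 15.7% with siRNA #2 when MYCN was repressed. With MYCN it held 20.9%, 19.9% and 19.7% under control siRNA, 27.4%, 22.5% and 25.3% under siRNA #1 and 23.9%, 19.9% and 24% under siRNA #2. The ranges met, 5 of 9 MYCN+ libraries lying above every MYCN- library, and the difference was 0.47 ± 0.14 log2 odds (adjusted p = 0.155). This cluster also holds an intron of the neighbouring gene PRR11, at 76.3% with MYCN on average, through a rare join from PRR11 into SMG8 (0.599%), so the share of intron 1 depends on the reads of both genes. SMG8 intron 3 averaged 99.1% with knockdown and 98.7% without (0.3 ± 0.2, adjusted p = 0.811), and the unannotated donor that mirrors it 1.28% with MYCN and 0.814% without (0.37 ± 0.19, adjusted p = 0.503). In these comparisons intron 3 entered the test only through control libraries and the donor only through MYCN+ ones.

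SMG9 gave the lowest p of any member for knockdown. The join from chr19:43740218 to 43747442 leaves out exon 6, 113 bases, and the shifted frame meets a stop after 205 codons of 520, 753 bases ahead of the last junction. Its PSI was 0.855%, 1.09% and 2.45% in wildtype, 2.17%, 2.18% and 4.74% with siRNA #1 and 3.26%, 2.64% and 3.04% with siRNA #2 when MYCN was repressed. With MYCN it was 1.58%, 1.38% and 2.64% under control siRNA, 2.64%, 4.62% and 6.2% under siRNA #1 and 2.46%, 2.88% and 4.62% under siRNA #2. Of the 12 knockdown libraries, 8 lay above every control library. The means of 3.45% and 1.67% differed by 0.76 ± 0.21 log2 odds (95% interval 0.31 to 1.21, adjusted p = 0.315). Each siRNA on each MYCN background gave a positive estimate, of 0.73 and 0.77 with MYCN repressed and 0.95 and 0.61 with MYCN expressed. The estimate by which this intron was chosen is the mean of these, so their shared sign is not separate support. On each background both siRNAs were also set against the same control libraries. SMG9 intron 9 averaged 98.5% with knockdown and 99.3% without (-0.62 ± 0.28, adjusted p = 0.627), and entered the test only through knockdown libraries. For MYCN the SMG9 introns had adjusted p of 0.679 and above, with the exon 6 join at 0.27 ± 0.2 and intron 6 at -0.08 ± 0.07.

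SMG5 carries phosphorylated UPF1 towards deadenylation and decapping. A join from chr1:156253508 to 156260451 leaves out exon 16, 159 bases and in frame. It held 1.66%, 1.95% and 3.08% in wildtype, 2.87%, 1.99% and 1.65% with siRNA #1 and 2.13%, 1.11% and 2.23% with siRNA #2 when MYCN was repressed. With MYCN it held 3.12%, 1.86% and 2.35% under control siRNA, 4.6%, 2.92% and 4.86% under siRNA #1 and 4.17%, 3.32% and 6.2% under siRNA #2. The 6 MYCN+ libraries above every MYCN- library included 5 of the 6 with SNRPD3 siRNA. The mean was 3.71% with MYCN and 2.07% without (0.61 ± 0.16, adjusted p = 0.0913). MYCN alone, in control siRNA, gave 0.11, and the interaction was 0.61 for siRNA #1 and 0.91 for siRNA #2, both with an adjusted p of 1. A second MYCN-named SMG5 intron, from 156264443 to 156265781, averaged 4.08% with MYCN and 2.45% without (0.59 ± 0.2, adjusted p = 0.228). For knockdown, SMG5 intron 5 averaged 97.8% and 96.9% (0.4 ± 0.15, adjusted p = 0.513), and an unannotated acceptor in it 0.832% and 1.35% (-0.39 ± 0.13, adjusted p = 0.42). That acceptor entered the test only through control libraries.

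SMG6 is the endonuclease of the pathway. Intron 14 held 35.3%, 35% and 40% of a cluster that also holds introns 12 and 13 in wildtype, 39.5%, 36.2% and 37.2% with siRNA #1 and 39.4%, 36.9% and 35.4% with siRNA #2 when MYCN was repressed. With MYCN it held 35.6%, 38.8% and 38.8% under control siRNA, 30.4%, 28.3% and 33.9% under siRNA #1 and 28.3%, 33.3% and 31.3% under siRNA #2. The 6 libraries with both MYCN and an SNRPD3 siRNA lay below the other 12. This separation was seen in the data, and the share of all tested introns that show such a pattern was not computed. Introns 12, 13 and 14 are consecutive and can all be spliced from 1 mRNA, and shares within a cluster depend on each other. The estimate was -0.25 ± 0.08 for MYCN (adjusted p = 0.201) and -0.19 ± 0.09 for knockdown (adjusted p = 0.632). The interaction was -0.49 for siRNA #1 and -0.45 for siRNA #2, each with an adjusted p of 1. Intron 12 of the same cluster averaged 29.5% with MYCN and 26.1% without (0.24 ± 0.1, adjusted p = 0.386). An unannotated join from chr17:2211660 to 2236492 averaged 1.6% with knockdown and 0.22% without (0.97 ± 0.39, adjusted p = 0.551). Fitted on only the libraries of MYCN+/SNRPD3- siRNA #2 and MYCN+/SNRPD3+, that join had an adjusted p of 0.0491, against 0.842 for the same groups with all libraries in the fit (1.27 ± 0.64).

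The first junction of SMG6, chosen here after its values were seen, was carried mainly by an unannotated donor. The acceptor at chr17:2300664 was joined to a donor at 2303014 in 57.9% of the reads of its cluster and to the annotated donor at 2303633 in 39.3%. A join from the annotated donor to an unannotated acceptor at 2303156, upstream of the unannotated donor, held 2.8%. The unannotated donor ranged from 36.8% to 73.4% among libraries and did not pass for knockdown (0.5 ± 0.26, adjusted p = 0.696) or MYCN (-0.13 ± 0.24, adjusted p = 0.915).

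**Figure D1:**
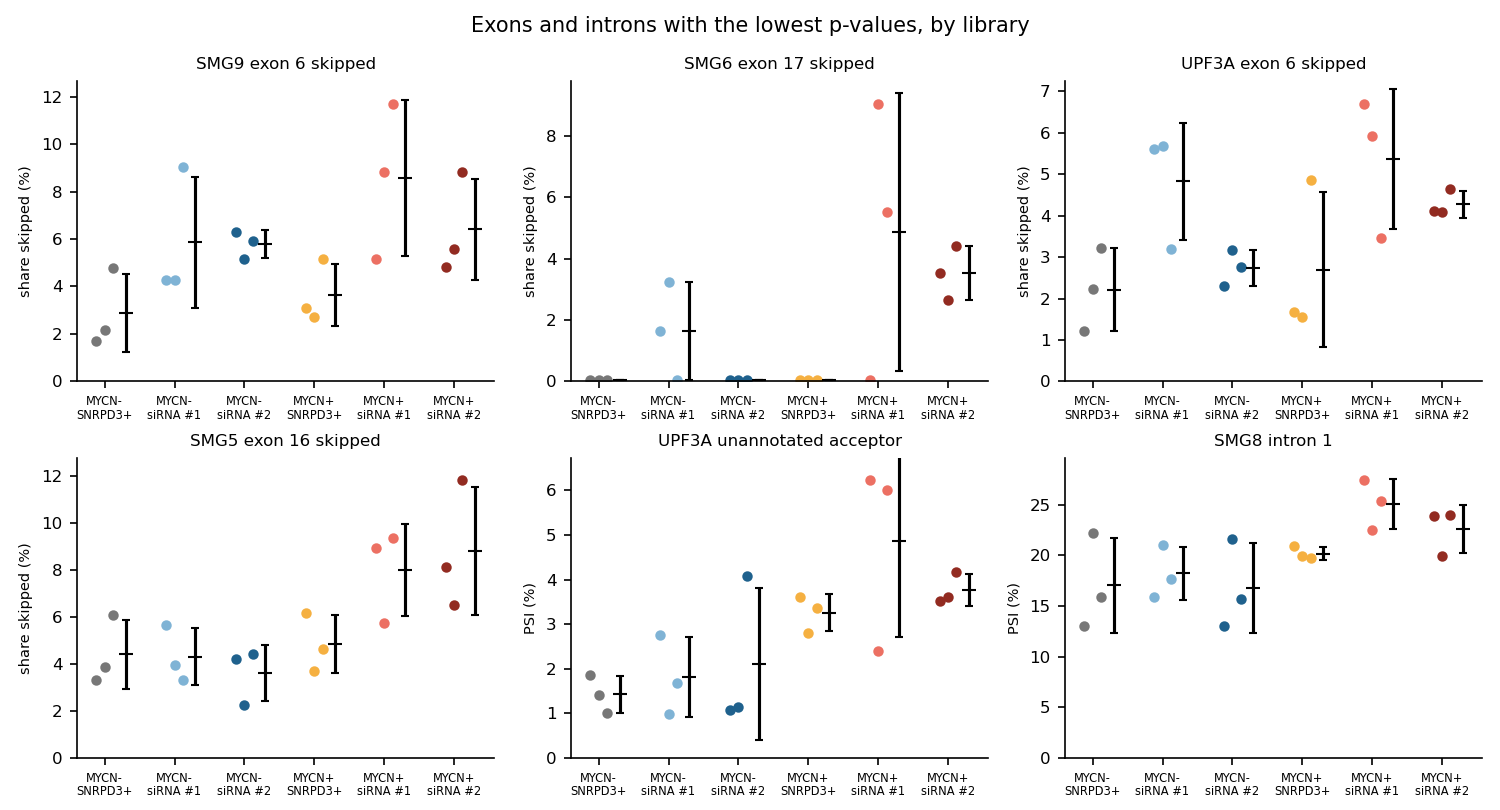
Values of 6 exons and introns (%, vertical axes from 0) in each library, as points by group, with the mean and SD of the 3 libraries as a bar. SMG6 exon 17 is at or below 0.0537% in the 6 control siRNA libraries and above 1% in 7 of the 12 with SNRPD3 siRNA. That exon entered the test only through libraries with SNRPD3 siRNA, so this split was partly set by the filter. The ranges of control and SNRPD3 siRNA libraries overlap in every panel.

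Exon skipping was then measured over every exon with annotated introns on both sides and any skipping join, whether or not that join was annotated. This measure was chosen after the data had been seen. It gave 33 member exons, of which 21 in 8 genes were tested, 13 of them with an unannotated skipping join. For knockdown 0.0666% of all 31520 tested exons were called and 13.6% had an unadjusted p under 0.05, against 0 and 7 of the 21 members by limma. All 7 had more skipping, the direction of 12.2% of all exons at that threshold. Exons entered on a mean share of at least 0.01 over all 18 libraries, 12 of them with SNRPD3 siRNA. In control libraries SMG6 exons 13 and 17 averaged 0.026% and 0.0426%, UPF3B exon 5 0.756% and UPF2 exon 9 0.924%. These exons passed that filter only through knockdown libraries, so their direction was partly set by the filter. Skipping was higher with knockdown in 71.4% of the member exons and in 71.8% of all exons, with a median difference of 1.23 points and 0.797 points. For MYCN 3.06% of all exons were called and 19.3% had an unadjusted p under 0.05, against 0 and 4 members, all 4 with more skipping beside 15.8% of all exons. Of these, SMG6 exon 17 averaged 0.575% in MYCN- libraries and passed the filter only through MYCN+ ones.

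The 7 exons with an unadjusted p under 0.05 for knockdown lay in UPF2, UPF3A, UPF3B, SMG6 and SMG9, and were named after their values were seen. SMG9 exon 6 was skipped at 6.65% with knockdown and 3.27% without (0.9 ± 0.25, adjusted p = 0.158). UPF3A exon 6, 56 bases, was skipped in wildtype at 1.21%, 2.22% and 3.21%, with siRNA #1 at 5.61%, 5.68% and 3.2% and with siRNA #2 at 2.31%, 3.17% and 2.75% when MYCN was repressed. With MYCN it was skipped at 1.68%, 1.56% and 4.85% under control siRNA, 6.7%, 5.91% and 3.46% under siRNA #1 and 4.1%, 4.08% and 4.65% under siRNA #2. Of 12 knockdown libraries 4 lay above every control library, and the means of 4.3% and 2.46% differed by 0.68 ± 0.23 (adjusted p = 0.223). An unannotated join past that exon, to 114291634, had an adjusted p of 0.461 among introns (0.49 ± 0.17), and a second to 114291601 one of 0.709 (0.33 ± 0.17).

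SMG6 exon 17, 212 bases, had skipping between 0.0355% and 0.0537% in the 6 control libraries. With MYCN repressed it was 1.63%, 3.25% and 0.0564% under siRNA #1 and 0.0434%, 0.0345% and 0.0404% under siRNA #2. With MYCN it was 0.0553%, 9.05% and 5.52% under siRNA #1 and 3.52%, 2.66% and 4.41% under siRNA #2. Skipping above 1% was thus seen in 7 knockdown libraries and 0 controls, and the 5 other knockdown libraries lay between 0.0345% and 0.0564%. The estimate was 1.34 ± 0.41 for knockdown (adjusted p = 0.195) and 1.02 ± 0.39 for MYCN (adjusted p = 0.167). Without MYCN+/SNRPD3- siRNA #1 replicate 1, whose value was 0.0553%, the adjusted p for MYCN was 0.018. SMG6 exon 13, 202 bases, was above 1% in 6 knockdown libraries and 0 controls (1.11 ± 0.49, adjusted p = 0.345). Both exons entered the test only through knockdown libraries, so such a split was partly set by the filter. The share of all tested exons with that split was not computed. The number of reads behind values this low is unknown, and its part in these differences was not tested.

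UPF2 exon 9 was skipped at 2.16% with knockdown and 0.924% without (0.79 ± 0.37, adjusted p = 0.365). UPF3B exon 5 was skipped at 1.82% and 0.756% (0.69 ± 0.29, adjusted p = 0.314), and exon 4 at 3.41% and 2.09% (0.5 ± 0.22, adjusted p = 0.333). For MYCN, SMG5 exon 16 was skipped at 7.21% with MYCN and 4.1% without (0.71 ± 0.19, adjusted p = 0.0669), SMG1 exon 3 at 6.72% and 2.51% (1.56 ± 0.56, adjusted p = 0.149) and UPF3B exon 4 at 3.62% and 2.32% (0.51 ± 0.2, adjusted p = 0.19). Of the 18 tested exons on canonical transcripts, skipping of 10 brings a stop codon more than 50 bases before the last junction, the usual mark of an NMD target. Among the 7 exons for knockdown 5 were of that kind (UPF2 exon 9, UPF3A exon 6, SMG6 exons 13 and 17 and SMG9 exon 6), and among the 4 for MYCN 1 was (SMG6 exon 17). The share of that kind over all exons of the whole table was not computed, and these counts were not tested. UPF2 exon 9 and SMG6 exons 13 and 17 had also entered only through knockdown libraries.

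Among the 12 annotated events of the members, all tested, 0 were called by limma for knockdown or MYCN. For knockdown 0 of them and 12.1% of all events had an unadjusted p under 0.05, with 0.00301% of all events called. For MYCN 3 of them and 17.4% of all events had an unadjusted p under 0.05, with 2.61% called. The 3 were the UPF1 extension, SMG1 exon 3 and the SMG1 alternative donor. Of these, the SMG1 donor, at 99.6% in MYCN- libraries, entered only through MYCN+ ones. A UPF3A alternative donor that adds 158 bases was used at 98.2% (adjusted p = 0.802 and 0.766). The UPF1 80-base exon, UPF3B exon 8, SMG1 exon 3 and the alternative donors of SMG1 and UPF3A have mean shares outside 5% to 95% and were described after their values were seen.

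The share of the members' summed PSI on the 113 unannotated rows was 2.58% ± 0.21 (SD, n = 3) in wildtype, 2.6% ± 0.18 and 2.63% ± 0.21 in MYCN-/SNRPD3- siRNA #1 and #2, 2.68% ± 0.23 in MYCN+/SNRPD3+, and 2.93% ± 0.27 and 2.82% ± 0.16 in MYCN+/SNRPD3- siRNA #1 and #2. The group means differed by little more than their SDs. By gene the share in wildtype was highest in SMG6, at 10.5% ± 1.7, and next in UPF3A, at 6.12% ± 0.27. The SMG6 share includes the unannotated donor described above, which on average took most reads of 1 of the gene's 7 clusters. It therefore does not show unannotated splicing spread along the gene.

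The other genes of the pathway were taken from a list of 36, with 655 introns, of which 377 in 32 genes were tested. For knockdown 0 of the 377 were called by limma and 21 (5.57%) had an unadjusted p under 0.05, beside 0.0242% and 7.8% of all introns. For MYCN 7 (1.86%) were called, 3 higher and 4 lower, in MOV10, DIS3 and STAU2, beside 1.23% of all introns, and 51 (13.5%) had an unadjusted p under 0.05, beside 11.7%. The 7 lay in 4 clusters, so they are not independent, and 2 of the STAU2 introns mirror each other. MOV10, a helicase that partners UPF1, had an intron, chr1:112675049-112688935, whose PSI fell with MYCN (-0.74 ± 0.12, adjusted p = 0.00796), from 62.1% to 75.3% in MYCN- libraries and from 51.6% to 65.8% in MYCN+ ones. That intron also fell in MYCN+/SNRPD3- siRNA #1 against wildtype (-1.19 ± 0.2, adjusted p = 0.0325). Another MOV10 intron, 112687106-112688328, rose with MYCN (0.96 ± 0.2, adjusted p = 0.0368). DIS3, the catalytic exosome nuclease, had an intron at chr13:72778380-72781289 that fell from a mean of 8.27% to 4.73% (-0.75 ± 0.15, adjusted p = 0.0243). STAU2, a double-stranded RNA binder of Staufen-mediated decay, held the 4 other calls, among them an annotated intron at 70.6% to 89.3% in MYCN- libraries and 90.3% to 95.7% in MYCN+ ones (1.37 ± 0.24, adjusted p = 0.014), with no overlap. The share of all tested introns without such overlap was not computed. This intron is 1 of the 2 that mirror each other. An unannotated STAU2 intron was called in MYCN+/SNRPD3- siRNA #2 against wildtype too (0.88, adjusted p = 0.0354).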

How the data were processed

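RNA from 18 libraries was sequenced (TruSeq Stranded mRNA), with 3 libraries in each of 6 groups. The authors aligned reads with STAR 2.5.0a to hg38, used SAMtools 1.3.1, and counted introns with leafcutter. The deposited values are PSI, a fraction from 0 to 1 of each cluster's intron reads. A second deposited table holds the authors' own comparisons (FDR and differences in PSI) and was not used. No read counts were given, so depth is unknown. Introns were matched to GENCODE release 44. The members and gene lists were chosen with earlier results of these data known.

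PSI was transformed to log2((PSI + 0.01)/(1 - PSI + 0.01)) for introns with mean PSI from 0.01 to 0.99, and fitted with limma 3.58.1 (R 4.3.3) over all 6 groups, with Benjamini-Hochberg adjustment over all tested introns, events or exons and a threshold of 0.05. Event shares and exon skipping were fitted alike. Errors after ± are SE for differences and SD for groups. In each gene the 2 introns with the smallest p for knockdown and for MYCN, each annotated event with a mean share from 5% to 95% and any called intron were named by rule. The other introns, events and skipped exons described were chosen after their values were seen. The fit was tested on simulated data: of 200 introns shifted by 1, 2 or 4 log2 odds in the knockdown comparison (152722 introns), 27.0%, 58.0% and 77.5% were recovered. These runs also gave 5, 9 and 9 false calls. Most member estimates were smaller than the smallest of these shifts, so 0 member calls does not show that splicing was unchanged. Alternatives were the offset, the PSI range, the scale, the moderation, the groups fitted, the replicate block and leaving out each library.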

Additional observations from a re-analysis of the deposited data

Results flagged for a closer look

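SMG6 intron 12 (chr17:2172859-2186663) differed in direction between MYCN backgrounds. In all 6 MYCN+ libraries with SNRPD3 siRNA its PSI lay above the MYCN+/SNRPD3+ mean, by 3.59 points on average, and in all 6 MYCN- ones it lay below the wildtype mean (-3.79 points). The difference itself was tested as an interaction and did not pass, at 0.45 log2 odds for siRNA #1 and 0.61 for siRNA #2, with an adjusted p of 1 by limma for both. SMG9 intron 6 went the other way, with -1.79 points on the MYCN+ background and 2.16 on the MYCN- background (interaction -0.28 for siRNA #1 and -0.18 for siRNA #2, adjusted p of 1 for both by limma). Of the 149 tested introns 2 (1.34%) showed such a split, beside 1056 of all 152722 tested introns (0.691%).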

How the results depend on the processing

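Counts of called members were 0 throughout and rose to 1 in a few settings. Fitting only the groups compared gave 1 intron for MYCN+/SNRPD3- siRNA #2 against MYCN+/SNRPD3+ (SMG6, adjusted p = 0.0491). That intron had entered the test only through knockdown libraries. With a replicate block, 1 intron was called for MYCN+/SNRPD3- siRNA #1 against wildtype (SMG9 exon 6 join, adjusted p = 0.0337), 1 for MYCN (SMG5 exon 16 join, 0.612 log2 odds, adjusted p = 0.0449) and 1 exon for MYCN (SMG5 exon 16, adjusted p = 0.0371). Libraries with the same replicate number did not deviate together on average (mean correlation 0.00615, from -0.0509 to 0.0638 over 45 pairs). That measure, taken over all tested introns, cannot show whether single introns follow the replicate number. SMG8 intron 1 was highest in replicate 2 in every MYCN- group (22.2%, 21% and 21.6%) and in no MYCN+ group. Whether the libraries are paired therefore stays unknown. Leaving out 1 library gave 0 to 1 introns and 0 to 1 exons for MYCN, the calls being UPF3A (without MYCN-/SNRPD3- siRNA #2 replicate 3, or MYCN+/SNRPD3- siRNA #1 replicate 2) and SMG6 exon 17 (without MYCN+/SNRPD3- siRNA #1 replicate 1). The cause was not tested, and SMG6 exon 17 had entered the MYCN comparison only through MYCN+ libraries. Estimates near 0 changed sign. The UPF3A acceptor 43 bases upstream of exon 4 gave 0.0144 for knockdown with an offset of 0.05 and 0.00267 untransformed. Leaving out 1 library gave -0.149 to 0.162 (knockdown) and -0.162 to 0.114 (MYCN) there, -0.0264 to 0.0824 and -0.0728 to 0.0546 for UPF3A exon 4, -0.0249 to 0.0669 and -0.054 to 0.0508 for its 142-base form, and -0.211 to 0.19 for the SMG1 58-base exon (knockdown). Depth is unknown, which limits every value near 0% or 100%.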
